A study of Mus musculus with 21 samples.

Results

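Macrophages labelled ST2-/- were set against wild-type macrophages, both cultured with no added cytokine, in 3 and 3 RNA-seq libraries of a series of 21. All genes of the deposited table that passed a filter on low counts were compared, which left 14473 of 47069. Both groups were bone marrow-derived macrophages of mice on a C57BL/6 background, grown from marrow over 5 days with M-CSF-conditioned medium and kept for another 36 h without cytokine. Cells with the strain label C57BL/6:ST2-/- are called ST2KO-labelled, and those with the label C57BL/6 wild type. The ages and sexes of the mice, the source of the ST2-/- allele, the exons it removes and the number of animals behind the 3 libraries were not stated in the labels. A further 6 libraries held the same pair of genotypes for 36 h with IL-33 and were used to look at the same genes again. The rest of the series was wild-type cells with IL-4, and cells of a floxed Gata3 line with a Cx3cr1-driven Cre, kept with or without IL-33 and called Gata3-floxed below.

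ST2 is the receptor chain that binds IL-33, an alarm cytokine released from damaged barrier tissue, and it is encoded by Il1rl1. It pairs with the accessory chain Il1rap and signals through MyD88, IRAK kinases and TRAF6 to NF-kB and MAP kinases. Il1rl1 lies on mouse chromosome 1 in a cluster of related receptor genes, among them the IL-1 receptor Il1r1, its decoy Il1r2, the IL-36 receptor Il1rl2 and the IL-18 receptor chains Il18r1 and Il18rap.

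Several of the sharpest differences between the genotypes lay in this cluster, so the stretches just before 3 of its genes that moved, and before Il1rl1 itself, are shown. They are the 250 bases upstream of the RefSeq start on the plus strand of GRCm38.p6, written 5′ to 3′, and they come from the reference assembly and not from these cells. They lie at chr1:40224830-40225079 for Il1r1, chr1:40324339-40324588 for Il1rl2, chr1:40515112-40515361 for Il18rap and chr1:40429320-40429569 for Il1rl1. Capitals mark the core GAGGAA of sites for PU.1, a lineage factor of macrophages.
Il1r1: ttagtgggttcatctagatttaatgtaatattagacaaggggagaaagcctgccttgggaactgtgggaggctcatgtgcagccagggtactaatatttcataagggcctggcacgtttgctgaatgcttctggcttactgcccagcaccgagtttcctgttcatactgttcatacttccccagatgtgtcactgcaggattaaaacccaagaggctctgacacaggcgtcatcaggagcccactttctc
Il1rl2: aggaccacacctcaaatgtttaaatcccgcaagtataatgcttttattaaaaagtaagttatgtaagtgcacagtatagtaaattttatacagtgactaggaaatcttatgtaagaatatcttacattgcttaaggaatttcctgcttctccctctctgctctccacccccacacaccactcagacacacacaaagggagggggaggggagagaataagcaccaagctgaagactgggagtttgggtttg
Il18rap: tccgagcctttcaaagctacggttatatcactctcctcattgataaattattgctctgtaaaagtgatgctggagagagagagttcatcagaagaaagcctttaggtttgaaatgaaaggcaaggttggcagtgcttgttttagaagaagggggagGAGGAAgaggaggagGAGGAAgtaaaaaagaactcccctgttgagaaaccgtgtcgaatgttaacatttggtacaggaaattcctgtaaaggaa
Il1rl1: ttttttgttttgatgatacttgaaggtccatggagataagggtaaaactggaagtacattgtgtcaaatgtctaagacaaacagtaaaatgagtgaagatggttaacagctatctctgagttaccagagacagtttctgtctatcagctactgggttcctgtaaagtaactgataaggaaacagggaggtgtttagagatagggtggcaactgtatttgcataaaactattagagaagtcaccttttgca
The search covered GAGGAA and the AP-1 letters TGANTCA on both strands. GAGGAA occurred 2 times in the Il18rap window, starting 94 and 79 bases upstream, and in none of the other 3 windows. The AP-1 letters occurred in none of the 4. Of 32851 RefSeq promoter windows of the same length, 23.3% held the PU.1 core and 6.75% the AP-1 letters, so these matches describe the letters only.

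The 6 libraries held 39286024 to 47365334 counts in the ST2KO-labelled group and 35995216 to 39295225 counts in the wild type. Levels are given as CPM, the count of a gene as a share of its library's count, scaled with edgeR's TMM factors. The first principal component of the 6 libraries held 30.2% of the variance and put the ST2KO-labelled libraries between -29.08 and -13.81 and the wild-type libraries between 10.27 and 31.11. The macrophage genes Lyz2, Csf1r and Adgre1 averaged 21800, 3380 and 1570 CPM in ST2KO-labelled cells and 21300, 3510 and 1620 CPM in wild-type cells. Of 15 macrophage core genes 1 was called, Csf2ra, a receptor chain for GM-CSF (0.25 ± 0.06). That call was lost when any library except ST2KO-labelled replicate 1 was left out. Of the marker lists of other cells, the stromal list summed to 3.01 to 3.54 CPM in ST2KO-labelled libraries and 2.46 to 3.04 CPM in wild-type libraries, with Col1a1, Col1a2 and Dcn at 0. The mast cell and basophil list summed to 6.77 to 8.7 CPM in ST2KO-labelled libraries and 10.6 to 14.5 CPM in wild-type libraries. The erythroid and megakaryocyte list summed to 23.8 to 30.7 CPM in ST2KO-labelled libraries and 15.1 to 23.6 CPM in wild-type libraries. The neutrophil list summed to 161 to 182 CPM in ST2KO-labelled libraries and 133 to 156 CPM in wild-type libraries. The lymphocyte list summed to 434 to 470 CPM in ST2KO-labelled libraries and 361 to 443 CPM in wild-type libraries. Most of it was Ighm, at 204 CPM in ST2KO-labelled cells and 192 CPM in wild-type cells, and Il7r, at 192 CPM in ST2KO-labelled cells and 165 CPM in wild-type cells, whereas the B cell marker Cd79a averaged under 0.5 CPM. The dendritic cell list summed to 489 to 512 CPM in ST2KO-labelled libraries and 427 to 477 CPM in wild-type libraries, and 1 of its 12 members was called, Itgax. None of the neutrophil, mast cell, eosinophil, lymphocyte, stromal or erythroid markers tested was called, and the part of other cells in the results below was not tested. In such bulk samples fewer cells of a kind and less RNA per cell cannot be told apart.

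Without cytokine 196 of 14473 genes differed (1.35%), 126 of them higher (0.871%) and 70 lower (0.484%) in ST2KO-labelled cells. These shares are the background for the counts of called list members above and below. Calls were made where the adjusted p of edgeR's quasi-likelihood test was under 0.05, with the Benjamini-Hochberg adjustment over all 14473 genes. Most changes were small. The median size of a called change was 0.56 on the log2 scale (1.48-fold), and 154 of the 196 were under 1. At 2-fold or more, 28 genes rose and 14 fell. At an unadjusted p under 0.05 there were 2137 genes, and the median log2 change of all genes tested was 0.004. The 3 and 3 libraries did not overlap for 20.7% of all genes tested and for all 196 called genes. Of the called genes 147 were protein-coding (of 12257 tested, 1.2%), 38 were pseudogenes (of 1048, 3.63%) and 11 were of other types. Counted across these types, 6 came from the mitochondrial genome (of 15, 40%, all higher).

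**Figure D1:**
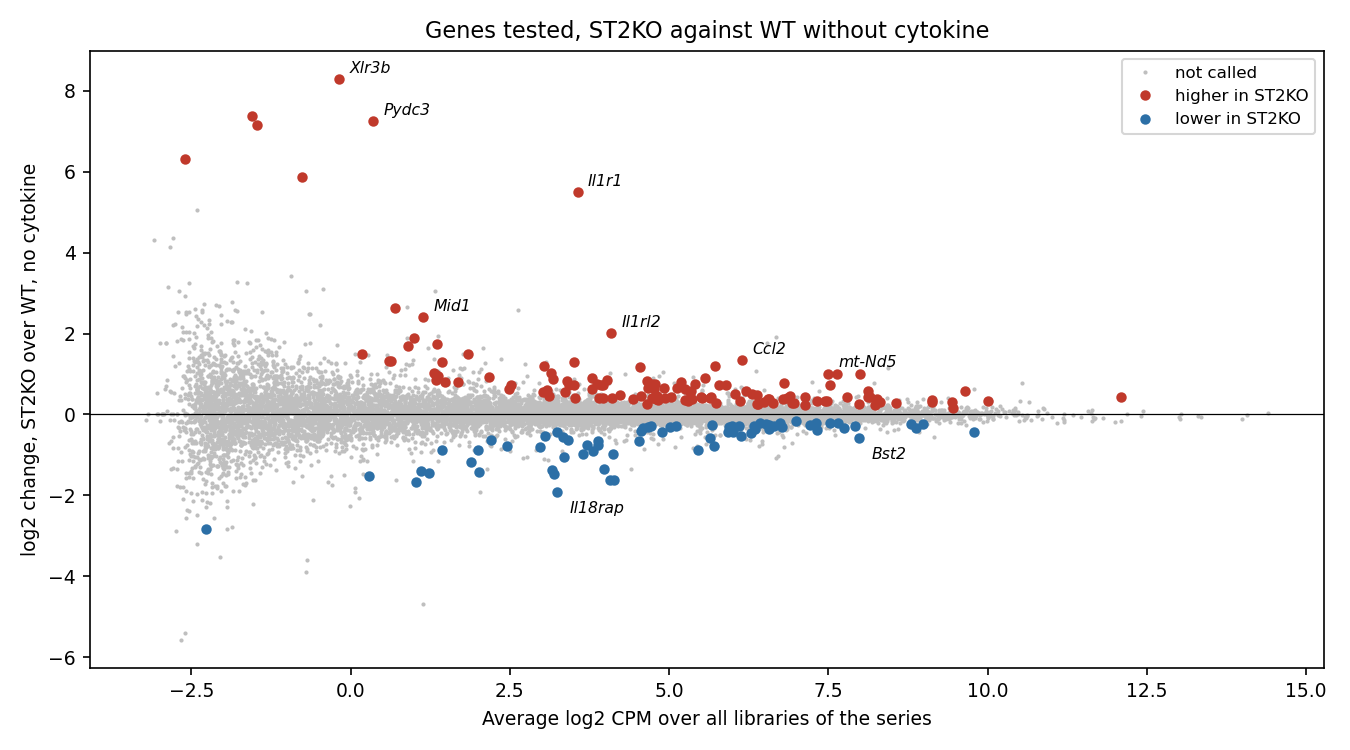
log2 change of each of the 14473 genes tested, libraries labelled ST2-/- (ST2KO) over wild type without cytokine, against the gene's average log2 CPM over all 21 libraries. The 126 called rises are red and the 70 called falls blue. Il1r1 stands far above the other genes of its level.

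Single libraries decided many of the calls. Leaving out each library in turn gave 54 to 208 called genes, with 54 without wild-type replicate 3, 64 without wild-type replicate 1, 65 without ST2KO-labelled replicate 2 and 98 without ST2KO-labelled replicate 3. A total of 45 genes were called in all 6 of these fits, 25 higher and 20 lower, and 23 of the 45 were protein-coding. Of 66 called genes picked by the naming rule or after their values were seen, 20 stayed called without wild-type replicate 3, 22 without ST2KO-labelled replicate 2, 25 without wild-type replicate 1, 32 without ST2KO-labelled replicate 3, and 60 without either of the other libraries. Among the 45 were these genes described below: Il1r1, Il1rl2, Il18rap, Creg2, Nck2, Map4k4, Wdfy1, Gdf3, Cd59a, Cnbd2, Serf2, Pydc3, Xlr3b, Mid1, Gm15726, Gm21887, Rpl38, Rps29, Rpl38-ps2 and Rpl9-ps4.

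Il1rl1, the gene that carries the ST2-/- label, had 17.4, 20.4 and 14.5 CPM in ST2KO-labelled libraries and 14.6, 17.3 and 15.1 CPM in wild-type libraries. The groups overlapped, and the log2 change was 0.16 ± 0.14 (SE; adjusted p = 0.658). Counts summed over the whole gene do not show whether some exons are missing, so this value does not check the deletion. A separate reading of the label came from the libraries with IL-33, where Arg1, an enzyme that wild-type cells switch on with IL-33, averaged 0.74 ± 0.402 CPM in ST2KO-labelled cells and 373 ± 60.3 CPM in wild-type cells (SD, n = 3 each).

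The rest of the signalling list was mostly not called. Of its 20 members 19 passed the filter, 2 rose, 1 fell, and the median log2 change was 0.01. All 3 called members are neighbours of Il1rl1 and not parts of the IL-33 signal. Il1rap, the shared accessory chain, averaged 12 ± 0.384 CPM in ST2KO-labelled cells and 11.6 ± 0.708 CPM in wild-type cells (adjusted p = 0.885). Myd88, the adaptor of the pathway, had 66.1, 62.3 and 67.0 CPM in ST2KO-labelled libraries and 73.2, 74.5 and 74.0 CPM in wild-type libraries. The Myd88 libraries did not overlap, but the change of -0.18 ± 0.05 was not called (adjusted p = 0.0759), while DESeq2 did call it at -0.19 (adjusted p = 0.0204). Myd88 averaged 63.4 CPM in Gata3-floxed cells without cytokine, also below every wild-type library without cytokine. The kinases Irak1, Irak2, Irak3 and Irak4 had changes of 0.01, 0.11, -0.04 and -0.09, none called. Traf6, Map3k7, Tab1, Tab2 and Tab3, which carry the signal onward, lay between -0.14 and 0.09 and were not called, although DESeq2 called Tab2 at -0.15 (adjusted p = 0.0437). The brakes Tollip and Sigirr had changes of -0.05 and -0.20, neither called.

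Il1r1, the signalling receptor for IL-1, had the largest called change among protein-coding genes that averaged at least 2 log2 CPM. It had 30.7, 31.6 and 29.5 CPM in ST2KO-labelled libraries and 1.12, 0.70 and 0.225 CPM in wild-type libraries, from 1325, 1534 and 1185 counts against 41, 27 and 9 counts. Every ST2KO-labelled library lay far above every wild-type library. The log2 change was 5.50 ± 0.29, or 45.3-fold (adjusted p = 1.11e-10), and ranged from 5.07 to 6.05 when each library was left out. Il1rl2, the receptor for IL-36, had 9.77, 13.2 and 10.3 CPM in ST2KO-labelled libraries and 2.57, 3.81 and 1.90 CPM in wild-type libraries, without overlap. Its log2 change was 2.01 ± 0.16, or 4.03-fold (adjusted p = 1.12e-07). Slc9a4, a sodium-proton exchanger gene, had 2.48, 2.15 and 1.69 CPM in ST2KO-labelled libraries and 1.04, 0.649 and 0.852 CPM in wild-type libraries. The groups did not overlap, and the change of 1.31 ± 0.27 (adjusted p = 0.0146) was lost without ST2KO-labelled replicate 2 (adjusted p = 0.06), wild-type replicate 2 (0.055) or wild-type replicate 3 (0.0693). Il1r2, the decoy receptor for IL-1, stayed under 0.5 CPM in all 6 libraries, and its change of 1.08 ± 0.62 was not called (adjusted p = 0.443).

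Other genes of the region fell. Il18rap, the accessory chain of the IL-18 receptor, had 3.43, 3.47 and 2.86 CPM in ST2KO-labelled libraries and 11.6, 13 and 12.1 CPM in wild-type libraries, without overlap. It is the gene whose window above held the 2 PU.1 cores. Its log2 change was -1.91 ± 0.16 (3.76-fold lower, adjusted p = 1.12e-07). Il18r1, the chain that binds IL-18, was near 0, with at most 0.227 CPM in ST2KO-labelled libraries and at least 0.311 CPM in wild-type libraries (-1.66 ± 0.5, adjusted p = 0.109). Creg2, a gene for a secreted glycoprotein, had 5.44, 7.63 and 5.30 CPM in ST2KO-labelled libraries and 18.1, 20.7 and 17.9 CPM in wild-type libraries. All 3 ST2KO-labelled libraries were well below the wild type, with a log2 change of -1.62 ± 0.16 (3.07-fold lower, adjusted p = 1.95e-06). Nck2, an adaptor that links tyrosine-phosphorylated receptors to the actin skeleton, had 6.46, 9.14 and 7.61 CPM in ST2KO-labelled libraries and 23.9, 24.7 and 23.1 CPM in wild-type libraries. It fell 3.08-fold without overlap (-1.62 ± 0.11, adjusted p = 7.36e-09).

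Falls of smaller size were seen in 3 further protein-coding genes of the region. Map4k4, a kinase of stress and adhesion signalling, had 97.7, 98.1 and 99.3 CPM in ST2KO-labelled libraries and 125, 121 and 122 CPM in wild-type libraries (-0.32 ± 0.05, adjusted p = 0.000772). Hibch, an enzyme of valine breakdown, averaged 8.06 ± 0.814 CPM in ST2KO-labelled cells and 11.9 ± 0.296 CPM in wild-type cells (-0.56 ± 0.11, adjusted p = 0.00801), a call lost without ST2KO-labelled replicate 3 (adjusted p = 0.0541). Tgfbrap1, which encodes a protein of endosome tethering that binds TGF-beta receptors, averaged 64.6 ± 4.68 CPM in ST2KO-labelled cells and 79.1 ± 2.11 CPM in wild-type cells. Its change of -0.29 ± 0.07 (adjusted p = 0.0328) was lost without ST2KO-labelled replicate 1 or 2 or wild-type replicate 1 or 3, with adjusted p of up to 0.242. Il1r1, Il1rl2, Il18rap, Creg2, Nck2 and Map4k4 were called in all 6 such fits. Low levels of Map4k4 and Tgfbrap1 were not particular to ST2KO-labelled cells. Gata3-floxed cells without cytokine averaged 103 CPM of Map4k4 and 65.9 CPM of Tgfbrap1, also below every wild-type library without cytokine. Hibch averaged 10.9 CPM there, nearer to the wild type.

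**Figure D2:**
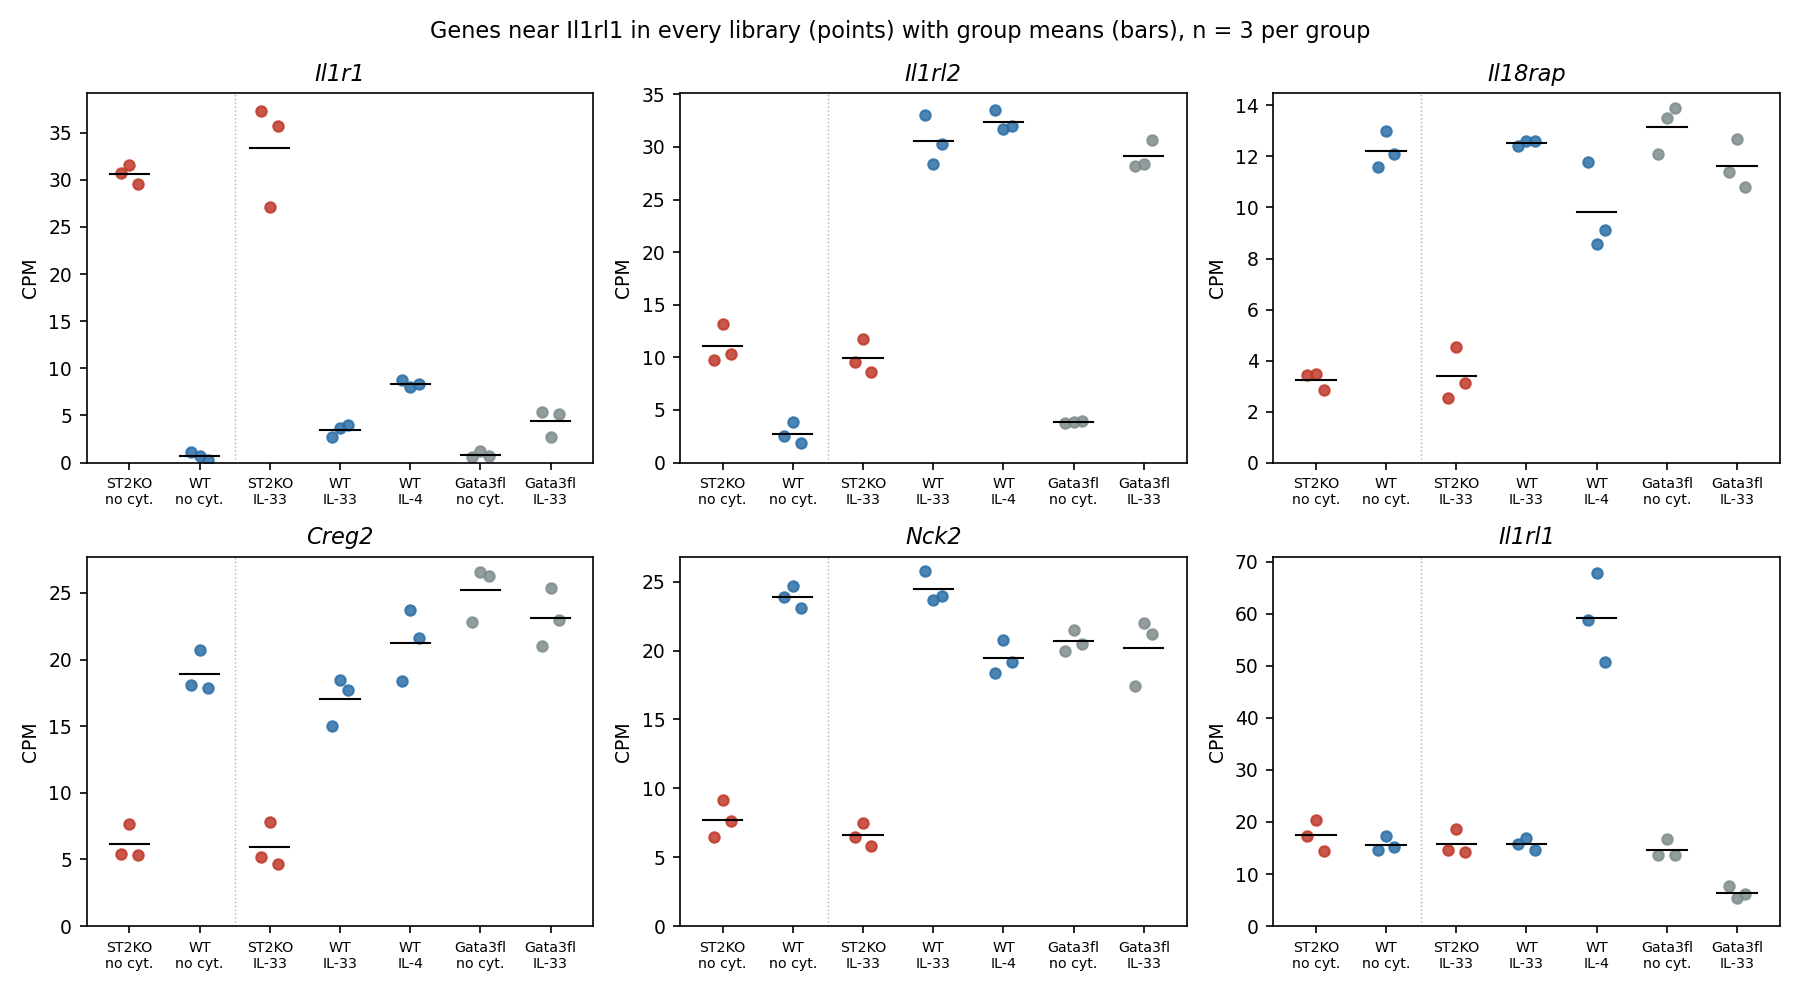
CPM of 6 genes near Il1rl1 in every library (points) with the mean of each group (black bars, n = 3), for libraries labelled ST2-/- (ST2KO, red), wild type (WT, blue) and Gata3-floxed (Gata3fl, grey), with no cytokine (no cyt.), IL-33 or IL-4. Il1r1 is highest in both ST2KO groups, Il18rap, Creg2 and Nck2 are low in both ST2KO groups, and Il1rl2 is high in wild-type cells with IL-33 or IL-4.

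A trend with distance was not tested, but of the bands below the share of called genes was highest nearest to Il1rl1, which spans chr1:40429570-40465415. Within 1 Mb of it 6 of 18 tested genes were called (33.3%), and 5 of these changed by 2-fold or more. From 1 to 5 Mb 2 of 47 were called (4.26%), from 5 to 20 Mb 3 of 119 (2.52%), on chromosome 1 beyond 20 Mb 12 of 725 (1.66%), and on other chromosomes 173 of 13564 (1.28%). The called genes nearest to Il1rl1 were Il18rap at 50 kb, Il1rl2 at 62 kb, Il1r1 at 112 kb and Slc9a4 at 115 kb, followed by Map4k4 at 403 kb and Creg2 at 778 kb. Nck2 lay 2979 kb away. The direction was mixed along the cluster, with rises in Il1r1, Il1rl2 and Slc9a4 and a fall in Il18rap, which lies between the last 2 of these. The genes without a call between Creg2 and Slc9a4 were D930019O06Rik (-3.53 ± 1.03), Il1r2 (1.08 ± 0.62), Gm16894 (-0.19 ± 1.2), Il1rl1 (0.16 ± 0.14) and Il18r1 (-1.66 ± 0.5). Tbc1d8, Cnot11 and Rnf149, with changes of 0.00, -0.07 and 0.03, lay farther out than Creg2, at 951, 883 and 852 kb. Of the 3 called genes between 5 and 20 Mb, Gm28437 (0.58) and Gm10925 (0.75) are pseudogenes, and Gm10925 shares its sequence with mt-Atp6 of the mitochondrial genome, so their counts are uncertain. Of 14 protein-coding genes that averaged at least 2 log2 CPM and changed by 2-fold or more, 5 lay within 5 Mb of Il1rl1. Leaving the 184 tested genes within 20 Mb out of the count took it to 185. An effect of missing ST2 and of other sequence carried beside the ST2-/- allele cannot be told apart in this design, since both come with the same line.

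**Figure D3:**
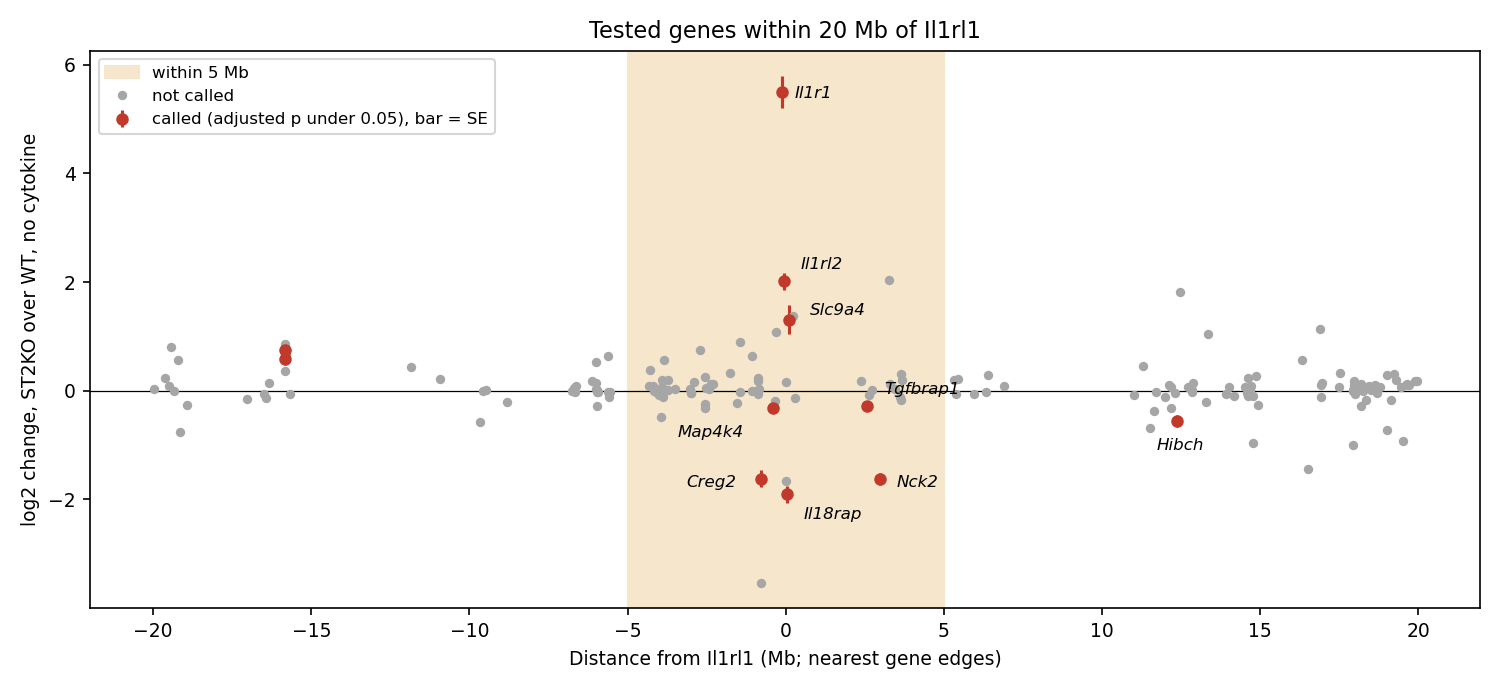
log2 change, ST2KO over wild type without cytokine, of the 184 tested genes within 20 Mb of Il1rl1, against the distance between nearest gene edges in Mb. Called genes are red with their standard error and protein-coding ones are named; the shaded band marks 5 Mb on either side. All called changes of 2-fold or more lie inside the band.

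Away from chromosome 1 near Il1rl1, a small set of genes changed evenly in all libraries. Wdfy1, an endosomal adaptor that binds phosphoinositides and lies on chromosome 1 outside the 20 Mb window, had 33.1, 31.5 and 33.8 CPM in ST2KO-labelled libraries and 53.2, 59.5 and 55.6 CPM in wild-type libraries. It fell 1.71-fold (-0.77 ± 0.05, adjusted p = 7.36e-09). Gdf3, a ligand of the TGF-beta family, had 13.8, 12.6 and 14.5 CPM in ST2KO-labelled libraries and 26.2, 24.9 and 24.0 CPM in wild-type libraries (-0.88 ± 0.08, adjusted p = 2.85e-07). Cd59a, which blocks the membrane attack complex of complement, had 9.61, 9.32 and 8.53 CPM in ST2KO-labelled libraries and 14.8, 15.2 and 16.3 CPM in wild-type libraries (-0.75 ± 0.10, adjusted p = 0.000191). Like all 196 called genes, these 3 did not overlap between the groups, and they were called whichever library was left out. Cnbd2, which encodes a protein with a cyclic nucleotide-binding domain, had 9.86, 9.43 and 9.18 CPM in ST2KO-labelled libraries and 25.2, 23.8 and 23.7 CPM in wild-type libraries (-1.35 ± 0.11, adjusted p = 1.96e-07). Gata3-floxed cells without cytokine were as low in Cnbd2, at 7.95 CPM, and 25.2% of its exon sequence recurs in other genes, so its count is uncertain. Serf2 fell as well (-0.54 ± 0.09, adjusted p = 0.00141) but shares 66.2% of its sequence with overlapping or related genes.

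Of 4 tested genes known to vary between C57BL/6 substrains, Wdfy1 and Nnt were lower in ST2KO-labelled cells and Ide and Cyfip2 were not called. Nnt, the mitochondrial transhydrogenase, averaged 71.0 ± 1.93 CPM in ST2KO-labelled cells and 85.9 ± 3.97 CPM in wild-type cells (-0.28 ± 0.06, adjusted p = 0.0273), and 47% of its sequence recurs in other entries of the annotation. The Nnt call was lost without ST2KO-labelled replicate 2 or 3 or wild-type replicate 1 or 3, with adjusted p of up to 0.179. Wdfy1 was called whichever library was left out. The substrain of either line was not stated and its part in the results was not tested.

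Several genes were low or without a count in wild-type cells and present in ST2KO-labelled cells. They were chosen after their values had been seen. Pydc3, a pyrin-domain gene of the interferon-inducible Ifi200 cluster on chromosome 1, had 306, 108 and 160 counts in ST2KO-labelled libraries and 2, 0 and 1 counts in wild-type libraries, a ratio of 167 (95% interval 56.8 to 812 for counting error only), with 20.9% of its sequence shared with paralogs. Xlr3b, a lymphocyte-regulated gene of the X chromosome, had 52, 56 and 23 counts in ST2KO-labelled libraries and none in wild-type libraries, at least 12.5-fold higher with a floor of 3 counts per library. Mid1, a ubiquitin ligase gene at the edge of the X and Y pairing region, had 97, 117 and 52 counts in ST2KO-labelled libraries and 19, 20 and 4 counts in wild-type libraries (2.40 ± 0.38, adjusted p = 0.00115). Gm21887 and Gm15726, annotated at Mid1 on the X chromosome, were also higher, Gm21887 at least 6.57-fold by the same floor and Gm15726 at a ratio of 80.3 (14.1 to 3200). Erdr1, which the annotation places on the Y chromosome, was at least 5.73-fold higher, a call lost without wild-type replicate 1 (adjusted p = 0.0734) or 3 (0.071). Xlr3b and these 4 genes share 25.7% to 59.7% of their sequence with other genes. They were also present in Gata3-floxed cells without cytokine, with 282 counts of Xlr3b, 586 of Mid1 and 93 of Erdr1 over 3 libraries, whereas Pydc3 had 1 count there.

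Further rises lay elsewhere in the genome, and Ccl2, Dcstamp, Itgax, Plau, Plaur, Lrrc32, Fam78b, Myc, Slc7a2 and Etv5 each lost the call in at least 1 of the 6 fits that left out a library. Ccl2, which draws monocytes into tissue, had 31.3, 49.8 and 35.5 CPM in ST2KO-labelled libraries and 10.2, 23.7 and 12.1 CPM in wild-type libraries (1.34 ± 0.30, adjusted p = 0.0285). Dcstamp, needed for fusion of macrophages and osteoclast precursors, had 49.8, 66.7 and 46.6 CPM in ST2KO-labelled libraries and 14, 36.3 and 20.6 CPM in wild-type libraries (1.20 ± 0.28, adjusted p = 0.0336). Itgax, which encodes CD11c, had 117, 152 and 113 CPM in ST2KO-labelled libraries and 41.3, 89.2 and 60.2 CPM in wild-type libraries (1.00 ± 0.25, adjusted p = 0.0452). Replicate 2 was the highest library of both groups for all 3 genes, and the groups did not overlap. The calls of Ccl2 and Dcstamp were lost without ST2KO-labelled replicate 2 or 3 or wild-type replicate 1 or 3, with adjusted p of up to 0.21 and 0.227. That of Itgax was lost when any library except wild-type replicate 2 was left out, with adjusted p of up to 0.281. Plau, the urokinase that activates plasminogen, averaged 293 ± 90.6 CPM in ST2KO-labelled cells and 146 ± 53 CPM in wild-type cells (1.01 ± 0.25, adjusted p = 0.0497). Its receptor Plaur averaged 56.9 ± 6.81 CPM in ST2KO-labelled cells and 40.9 ± 4.42 CPM in wild-type cells (0.48 ± 0.11, adjusted p = 0.0346). Lrrc32, which displays latent TGF-beta at the cell surface, rose 2.26-fold (adjusted p = 0.0162), and Fam78b 2.02-fold (adjusted p = 0.0333). Myc, the growth-promoting transcription factor, rose 1.80-fold (adjusted p = 0.039), and Slc7a2, a transporter of arginine and other cationic amino acids, 1.86-fold (adjusted p = 0.023). Etv5, an ETS transcription factor, rose 1.78-fold (adjusted p = 0.0437), with 24.5% of its sequence shared.

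Falls of like size were fewer. Ndrg2, a gene of the NDRG stress and differentiation family, had 11.3, 5.92 and 7.27 CPM in ST2KO-labelled libraries and 24.5, 16.6 and 26.1 CPM in wild-type libraries (-1.46 ± 0.30, adjusted p = 0.0167). Replicate 2 was the lowest library of both groups, and the call was lost without the same 4 libraries as for Ccl2, with adjusted p of up to 0.132. Treml2, a TREM-like receptor, averaged 8.35 ± 2.15 CPM in ST2KO-labelled cells and 15.6 ± 2.60 CPM in wild-type cells (-0.90 ± 0.20, adjusted p = 0.0271). Pde7b, a phosphodiesterase for cyclic AMP, fell 1.56-fold (adjusted p = 0.025), Sh3bp5 1.38-fold (adjusted p = 0.0435) and Dnaaf3, an assembly factor of cilia dynein, 1.46-fold (adjusted p = 0.0162). Fcgr4, an activating Fc receptor, fell 1.35-fold (adjusted p = 0.0232) as the called gene among 9 Fc receptors tested, and Gas6, the bridge between dying cells and TAM receptors, 1.34-fold (adjusted p = 0.0295). Treml2, Pde7b, Sh3bp5, Dnaaf3, Fcgr4 and Gas6 each lost the call without ST2KO-labelled replicate 2. The adjusted p there ran from 0.0999 for Dnaaf3 to 0.309 for Sh3bp5. Each of these genes also lost it when some other library was left out.

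The mRNAs of the mitochondrial genome lay above the wild type in ST2KO-labelled cells. Of 12 tested, 5 rose, all 12 had changes above 0 and the median log2 change was 0.76. The list summed to 2360, 2760 and 2170 CPM in ST2KO-labelled libraries and 1590, 1720 and 1120 CPM in wild-type libraries. Each ST2KO-labelled library lay above each wild-type library. mt-Nd5, a subunit of complex I, had 241, 301 and 217 CPM in ST2KO-labelled libraries and 133, 146 and 97.3 CPM in wild-type libraries (1.01 ± 0.18, adjusted p = 0.00557). mt-Nd6, on the other strand beside it, rose 1.74-fold (adjusted p = 0.00821), mt-Cytb of complex III 1.66-fold (adjusted p = 0.0285) and mt-Atp6 of ATP synthase 1.86-fold (adjusted p = 0.0156). The count of mt-Atp6 is uncertain, since 99.5% of its sequence is shared, mostly with Gm10925. mt-Co1, the most abundant, averaged 1090 CPM in ST2KO-labelled cells and 707 CPM in wild-type cells but was not called (0.63, adjusted p = 0.0606). The count of called members fell to 0 without wild-type replicate 3, and to 1 without wild-type replicate 1 or ST2KO-labelled replicate 2, and the median stayed between 0.55 and 0.93. Without the filter on low counts 10 were called. That fit gave mt-Nd5 a like log2 change of 1.02 but an adjusted p of 1.35e-60 by the same edgeR test. With p so much smaller at a like change, its counts of calls, here and below, are not comparable with those of other settings. All transcripts of the mitochondrial genome made up 0.28 ± 0.0347% of counts in ST2KO-labelled libraries and 0.17 ± 0.0358% in wild-type libraries. The part of RNA quality in this share was not tested. The nuclear genes of the respiratory chain did not shift with them, with 2 of 60 higher, Cox7c (1.31-fold, adjusted p = 0.00451) and Cox6c (1.20-fold, adjusted p = 0.0333), and a median of 0.04.

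Interferon-stimulated genes lay below the wild type as a group while almost none was called. Of 47 tested all had log2 changes below 0, with a median of -0.50. At an unadjusted p under 0.05 there were 41, against 2137 of all 14473 genes. The 3 and 3 libraries did not overlap for 30 of them, against 20.7% of all genes, and 1 gene of the list was called. That gene was Bst2, the tetherin that holds budding viruses at the membrane, with 274, 193 and 226 CPM in ST2KO-labelled libraries and 396, 318 and 327 CPM in wild-type libraries (-0.59 ± 0.14, adjusted p = 0.0412). The list summed to 3430, 2170 and 2830 CPM in ST2KO-labelled libraries and 4700, 3610 and 3730 CPM in wild-type libraries. The ranges did not overlap, with ST2KO-labelled replicate 1 close to wild-type replicate 2. Irf7, a master factor of the interferon response, averaged 86.9 CPM in ST2KO-labelled cells and 182 CPM in wild-type cells (-1.07, adjusted p = 0.132). Ifit3 averaged 46.9 CPM in ST2KO-labelled cells and 83.3 CPM in wild-type cells (-0.83, adjusted p = 0.188). The number called changed with the setting. DESeq2 called 4 lower, limma-voom 4, and the fit without ST2KO-labelled replicate 1 called 10. None was called without ST2KO-labelled replicate 2 or 3 or wild-type replicate 1 or 3. The fit without the filter on low counts called 42 lower, a count that is not comparable for the reason given above. The median lay between -0.66 and -0.36 in every setting. MHC class I presentation genes, many of them also driven by interferon, had 1 of 16 lower and all 16 below 0 with a median of -0.19. The called member was Tap1, the peptide transporter, with 93.1 ± 4.67 CPM in ST2KO-labelled cells and 114 ± 7.30 CPM in wild-type cells (-0.29 ± 0.07, adjusted p = 0.0423).

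Cell cycle genes leaned the other way. Of 36 tested 35 had changes above 0, the median was 0.26 and 3 rose. These were Rrm2, which makes deoxynucleotides (1.57-fold, adjusted p = 0.0346), Uhrf1, which maintains DNA methylation at replication (1.56-fold, adjusted p = 0.0329), and Mcm5 of the replicative helicase (1.46-fold, adjusted p = 0.0328). Mki67, the proliferation marker, averaged 166 CPM in ST2KO-labelled cells and 134 CPM in wild-type cells and was not called (0.31, adjusted p = 0.226). No member was called without wild-type replicate 1, wild-type replicate 3 or ST2KO-labelled replicate 2, whereas DESeq2 called 9 and the fit without the filter on low counts 22. Lysosomal genes had 3 of 30 lower, Neu1 (1.19-fold, adjusted p = 0.0441), Glb1 (1.16-fold, adjusted p = 0.042) and Ppt1 (1.16-fold, adjusted p = 0.0279), with 26 of 30 below 0 and a median of -0.07. None of these was called without ST2KO-labelled replicate 2 or 3 or wild-type replicate 1 or 3.

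**Figure D4:**
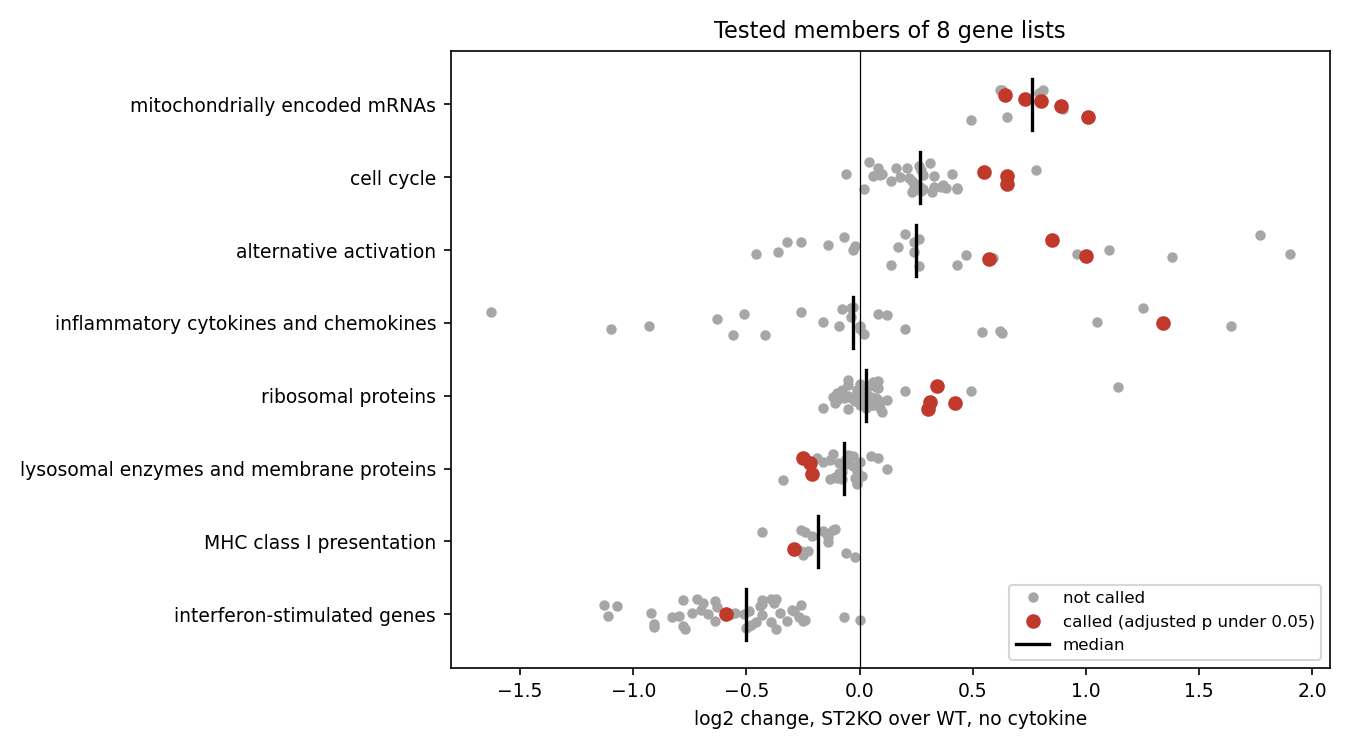
log2 change, ST2KO over wild type without cytokine, of the tested members of 8 gene lists, 1 point per gene. Called members are red and the black bar is the median of the list, which runs from 0.76 for the mRNAs of the mitochondrial genome to -0.50 for the interferon-stimulated genes.

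Ribosomal protein genes had 4 of 50 higher, Rpl38, Rps28, Rps23 and Rpl37 (1.23-fold to 1.34-fold), and a median of 0.03. The list does not hold all such genes: Rps29 (0.58, adjusted p = 0.000555) and Rpl39 (0.24, adjusted p = 0.0359), outside it and picked after their values were seen, were also called, and the sequence they share with other genes was not computed. Pseudogenes of such genes were among the called genes in both directions, such as Rpl38-ps2 (0.64) and Rpl9-ps4 (-0.66). Rpl38 shares 27.4% and Rps23 37.7% of its sequence with other genes, so these counts are uncertain. Lipid handling genes had 3 of 25 higher, the fatty acid receptor Cd36 (1.5-fold, adjusted p = 0.0447), the desaturase Scd1 (1.41-fold, adjusted p = 0.0359) and the lipase Lpl (1.34-fold, adjusted p = 0.045). All 3 calls were lost when only the 6 libraries compared were fitted. Cholesterol synthesis had 1 of 23 higher, the demethylase Cyp51 (1.23-fold, adjusted p = 0.0189). Of the 23, 20 had changes above 0, with a median of 0.15. At an unadjusted p under 0.05 there were 12, against 2137 of all 14473 genes. The list summed to 1520, 1600 and 1540 CPM in ST2KO-labelled libraries and 1360, 1450 and 1380 CPM in wild-type libraries. Integrins had 2 of 15 higher, Itgax and Itgb2, the common chain of CD11 integrins (1.25-fold, adjusted p = 0.0326). Osteoclast and fusion genes had 2 of 10 higher, Dcstamp and the proton pump subunit Atp6v0d2 (1.34-fold, adjusted p = 0.0313). With only the 6 libraries compared, Cyp51, Itgb2, Dcstamp and Atp6v0d2 also lost their calls (adjusted p = 0.058, 0.058, 0.0514 and 0.081).

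Genes of alternative and inflammatory activation were mostly not called. The alternative activation list had 3 of 26 higher, Itgax, Myc and the transcription factor Egr2 (1.49-fold, adjusted p = 0.0458), and a median of 0.25. Its defining genes were near 0 or not called: Arg1 averaged 0.51 ± 0.33 CPM in ST2KO-labelled cells and 0.381 ± 0.126 CPM in wild-type cells. Chil3, a chitinase-like protein, averaged 8.21 ± 0.856 CPM in ST2KO-labelled cells and 8.40 ± 0.947 CPM in wild-type cells. Retnla stayed under 0.2 CPM in all 6 libraries. Inflammatory cytokines and chemokines had 1 of 27 higher, Ccl2, and a median of -0.03. NF-kB subunits and feedback genes had 1 of 20 higher, the deubiquitinase Tnfaip3 (1.31-fold, adjusted p = 0.0336). With only the 6 libraries compared, Myc, Egr2 and Tnfaip3 lost their calls (adjusted p = 0.081, 0.0915 and 0.0514). Irg1, the older symbol of Acod1, the enzyme that makes itaconate, averaged 3.66 ± 1.72 CPM in ST2KO-labelled cells and 3.30 ± 0.976 CPM in wild-type cells (adjusted p = 0.876). Ucp2, a carrier of the mitochondrial inner membrane, averaged 1020 ± 44.4 CPM in ST2KO-labelled cells and 960 ± 12.9 CPM in wild-type cells (adjusted p = 0.325). Il33 had no count in any of the 6 libraries, which allows at most 3 counts per library. MHC class II presentation genes had 9 of 10 above 0 and a median of 0.26, with none called, 7 of 10 at an unadjusted p under 0.05, 2 called with DESeq2 and 7 without the filter on low counts. They summed to 1840, 1990 and 2150 CPM in ST2KO-labelled libraries and 1350, 1750 and 1700 CPM in wild-type libraries, without overlap. No member was called among glycolysis, TCA cycle, Nrf2, hypoxia, stress response, heat shock, p53, monocyte, Toll-like receptor, chemokine receptor, clock or histone genes.

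The same genotypes with IL-33 gave a second look at the 196 genes in 6 other libraries, which shared the fit, its dispersion and its filter with those above. There 5352 of 14473 genes differed (37%), 2593 higher (17.9%) and 2759 lower (19.1%), which is the background for the counts that follow. Of the 196 genes 121 were called in the same direction with IL-33, 23 in the opposite direction and 52 were not called. Of the 70 genes that fell, 54 were also lower with IL-33, 6 higher and 10 not called, and of the 126 that rose, 67 were also higher, 17 lower and 42 not called. The genotype difference itself changed with IL-33 for 70 of the 196, against 3284 of all 14473 (22.7%).

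**Figure D5:**
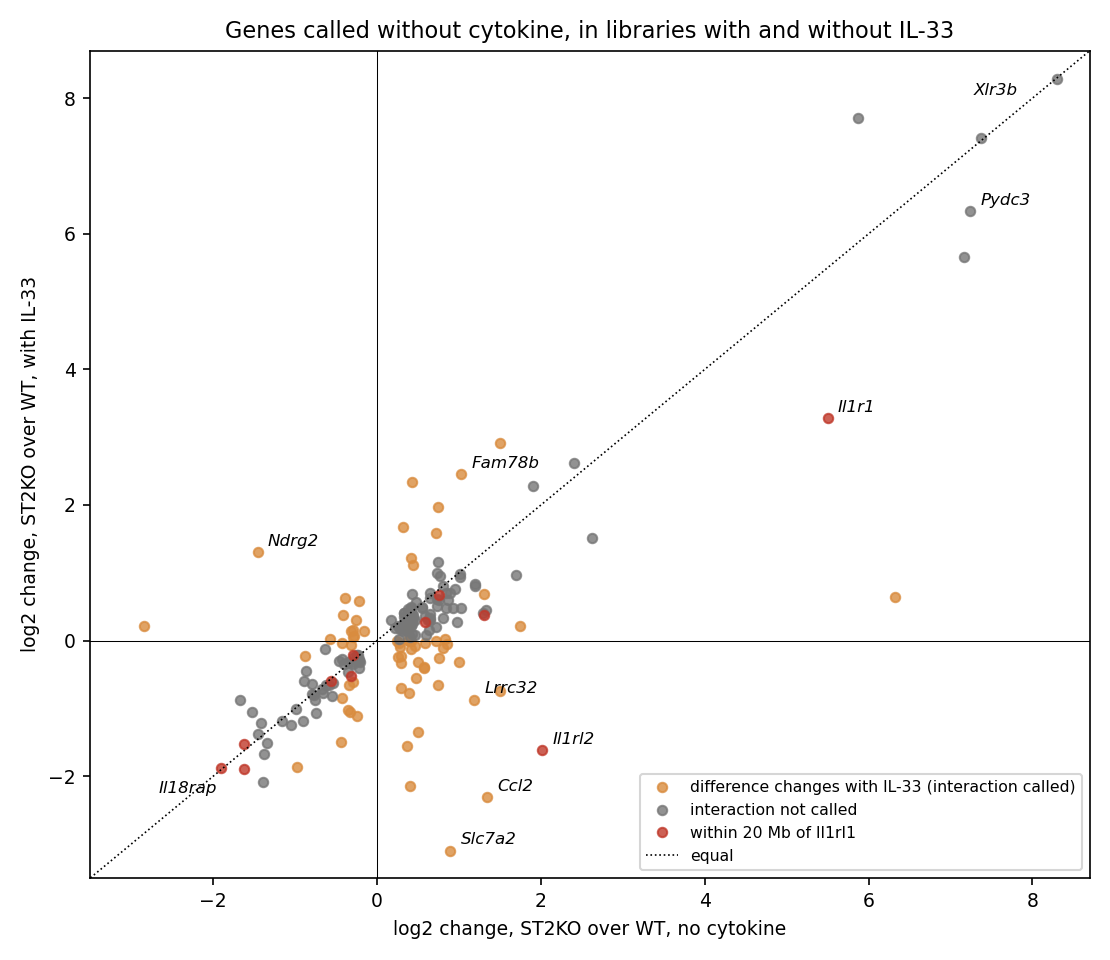
log2 change, ST2KO over wild type, of the 196 genes called without cytokine, in libraries without cytokine (horizontal) and with IL-33 (vertical). Genes within 20 Mb of Il1rl1 are red, others whose difference changed with IL-33 orange, and the rest grey; the dotted line marks equal change. Il18rap lies on the line, and Il1rl2, Ccl2 and Slc7a2 lie below 0 with IL-33.

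Il18rap, Creg2 and Nck2 were called lower with IL-33 too, and their interactions were not called, which does not show that the sizes were equal. With IL-33 their log2 changes were -1.88, -1.53 and -1.89, with interaction adjusted p of 0.949, 0.817 and 0.245. Wdfy1 (-0.80), Cnbd2 (-1.51) and Cd59a (-1.07) were also called lower with IL-33 and had interaction adjusted p of 0.837, 0.563 and 0.119. The mitochondrial mRNAs were again higher, with 11 of 12 called and a median of 0.80, and 31 of the 47 interferon-stimulated genes were called lower, with a median of -0.59.

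Other differences changed with IL-33. Il1r1 averaged 33.3 ± 5.48 CPM in ST2KO-labelled cells with IL-33 and 3.42 ± 0.668 CPM in wild-type cells with IL-33, a log2 change of 3.28 ± 0.24 (interaction adjusted p = 0.000182). Il1rl2 turned round, with 9.96 ± 1.54 CPM in ST2KO-labelled cells with IL-33 and 30.6 ± 2.31 CPM in wild-type cells with IL-33 (-1.62 ± 0.14, adjusted p = 6.07e-09). Ccl2 did the same, with 35 ± 16.4 CPM in ST2KO-labelled cells with IL-33 and 174 ± 23.9 CPM in wild-type cells with IL-33 (-2.31 ± 0.29, adjusted p = 1.35e-06). For these 3 genes the means with and without IL-33 were closer as a ratio in ST2KO-labelled cells than in wild-type cells.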

How the data were processed

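Paired-end reads of 150 bases came from libraries made with a NEBNext Ultra kit from 1 ug of RNA, per the labels' protocols. The assembly GRCm38 and the tools HISAT2 2.0.5, HTSeq 0.6.1 and DESeq2 1.22.2 are named per the submitters' processing notes; its gene models and strand setting are not given in the sources used here. The values are the deposited raw counts per gene. Positions and types came from GENCODE M21, which held 46574 of the 47069 gene IDs. All 21 libraries entered 1 quasi-likelihood fit in edgeR 4.0.16 (R 4.3.3) with TMM factors, the filterByExpr rule by group, a common dispersion of 0.0074 and 14 residual degrees of freedom; genes kept held at least 99.97% of counts. Calls used a Benjamini-Hochberg adjusted p under 0.05 over 14473 genes. Changes are log2 ± SE, levels mean ± SD of 3 libraries. The difference between the genotype differences with and without IL-33 was tested as an interaction. The fitting script was tested on simulated data.

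Nothing says that libraries came from separate animals, so p-values measure the spread between libraries, which may be technical. No 2 replicates agreed within sampling noise (chi-square per gene 6.25 to 22.9). Labels give no batch. Intervals and floors of 3 counts cover counting error only. The libraries compared and the 42 gene lists were chosen with earlier results of these data known. Genes were named by list membership, distance from Il1rl1 (20 Mb), size of change and smallest p, and others are stated. Size was ranked where the mean level was 2 log2 CPM or more and the libraries did not overlap. The lack of overlap adds no support to a call, since it held for all 196 called genes. Of 90 named genes, 16 share at least 20% of their 50-base stretches with another gene and 43 overlap another gene, so without a known strand setting their counts are less certain. RefSeq held all 4 promoters sought. Alternatives were RLE and upper-quartile factors, no filter, DESeq2 1.42.0, limma-voom (limma 3.58.1), only the libraries compared, a replicate block, an adjusted p under 0.01, leaving out genes near Il1rl1, and leaving out each library.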

Additional observations from a re-analysis of the deposited data

Results flagged for a closer look

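The groups held 3 libraries each, too few for a test for outlying libraries. For 30 named genes the genotype difference with IL-33 differed from that without cytokine, by the interaction term of the edgeR fit (adjusted p under 0.05), as it did for 22.7% of all genes tested. Each value below is the ST2KO-labelled minus wild-type log2 change with IL-33, less the same change without cytokine.

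In the receptor list and beside Il1rl1, the value was -2.22 for Il1r1, -3.63 for Il1rl2, -3.73 for Il1r2, -0.38 for Myd88, 0.52 for Irak2, -0.91 for Irak3 and -0.21 for Map4k4. Il1rl2 was called higher without cytokine and lower with IL-33. Among genes that rose without cytokine, it was -3.65 for Ccl2, -3.99 for Slc7a2, -2.05 for Lrrc32, -1.31 for Itgax, -0.90 for Myc, -0.80 for Etv5, -0.96 for Egr2, -1.17 for Tnfaip3, -1.03 for Plaur, -0.62 for Cd36, -0.82 for Scd1, -0.62 for Cyp51, -0.39 for Cox7c and -0.50 for Cox6c, and only for Fam78b in this group was it above 0, at 1.44. Among genes that fell without cytokine, it was 2.76 for Ndrg2, 0.65 for Gdf3, 0.40 for Gas6 and -0.42 for Fcgr4. Among genes not called without cytokine it was -9.40 for Arg1, -4.68 for Irg1, -1.09 for Chil3 and 0.71 for Cx3cr1, the fractalkine receptor.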

How the results depend on the processing

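Without cytokine, 196 genes differed, and the count was 195 or 196 under other scaling factors, 220 with limma-voom and 166 when only the libraries compared were fitted. That last fit shared only 123 genes with the 196, and 15 of the named called genes lost their calls in it. The count was 438 with DESeq2, 875 without the filter on low counts and 58 at an adjusted p under 0.01. The first pair of these shared 191 and 193 genes with the 196. Without the filter, edgeR gave Il1r1 an adjusted p of 6.24e-251 in place of 1.11e-10, at a like log2 change of 5.51. The count of 875 is therefore not comparable with the others. Leaving out each library gave 54 to 208. With IL-33 the count of 5352 moved by less than 1.5 times in all settings run, and the share of higher calls by at most 10 percentage points. The interaction count of 3284 was 2087 at an adjusted p under 0.01. The cause of these moves was not tested. With the replicate number as a block, 1152 genes differed without cytokine, 194 of them among the 196; Myd88 and Tab2 were then called too (adjusted p = 0.0308 and 0.0334). That fit held only the libraries compared, which gave 166 without the block. Same-numbered libraries correlated at 0.034 to 0.102 over all genes, and ST2KO-labelled replicate 3 did not correlate best with its own number. Such weak correlations cannot settle whether the numbers mark a pairing. In both groups the interferon-stimulated sum was highest in replicate 1, and the mitochondrial mRNA sum in replicate 2. The sum of the IL-33 receptor signalling list was not ordered alike in the groups. A pairing was not tested further.

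No called named gene turned its sign. Signs of genes not called turned when libraries were left out in turn. Their log2 changes ran from -0.0028 to 0.08 for Il1rap, -0.02 to 0.03 for Irak1, -0.07 to 0.02 for Irak3, -0.04 to 0.05 for Traf6, -0.24 to 0.75 for Arg1, -0.11 to 0.06 for Chil3 and -0.24 to 0.43 for Irg1. With 3 libraries a group and a median called change of 1.48-fold, smaller differences are not shown to be absent.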

Other observations

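Further called genes, chosen after their values were seen, had functions not covered above. Slc15a2, a peptide transporter, fell by 1.67 on the log2 scale (adjusted p = 0.00266) and was called whichever library was left out. Rap1gap, which switches off the small GTPase Rap1, rose by 1.69 (adjusted p = 0.006), and Vdr, the vitamin D receptor, by 1.5 (adjusted p = 0.0335). Smpd3, a neutral sphingomyelinase, rose by 1.5 (adjusted p = 0.0228), and Prdm16, a transcription factor of brown fat and stem cells, by 1.33 (adjusted p = 0.0109). Rap1gap, Vdr, Smpd3 and Prdm16 each lost the call in at least 1 fit that left out a library. They averaged only 0.91, 0.18, 1.84 and 0.6 log2 CPM over the series. Acap1, a regulator of Arf6 recycling, rose by 0.74 (adjusted p = 0.00578) and was called whichever library was left out, as was Strap at 0.38 (adjusted p = 0.000214).

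Other called genes were picked in the same way. The D-type cyclins Ccnd1 and Ccnd2 both rose by 0.72 (adjusted p = 0.0333 and 0.0435), and Pole, the leading-strand polymerase, by 0.73 (adjusted p = 0.0178). Ubb, a ubiquitin gene, rose by 0.31 (adjusted p = 0.00151) and was called whichever library was left out. The transferrin receptor Tfrc rose by 0.37 (adjusted p = 0.0326), and with IL-33 it was lower in ST2KO-labelled cells (-1.55). Among genes that fell were Cd47, the signal that holds back phagocytosis (-0.22, adjusted p = 0.0234), and Sp110 and Dtx3l, both interferon-responsive (-0.43, adjusted p = 0.0234, and -0.36, adjusted p = 0.0442). Apart from Ubb, each gene of this paragraph lost the call in some fit that left out a library.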
